A study of Mus musculus with 23 samples.

Results

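A set of 9 mouse genes was followed through bulk RNA-Seq of neutrophils and of whole lung: the vascular growth factor genes *Vegfa*, *Vegfb* and *Pgf*, the growth factor and cytokine genes *Hbegf*, *Prok2* and *Tgfb1*, the angiogenesis inhibitor gene *Thbs1*, and *Plau* and *Plaur* of the urokinase system. They were chosen by name as angiogenic mediators and matched by NCBI gene identifier among the 21878 genes of the sorted neutrophil tables and by symbol among the 55335 genes of the whole-lung table, and each of the 9 was found in every table. The first experiment compared neutrophils sorted as CD45+CD11b+Ly6G+ cells from perfused lung, peripheral blood (PB) and bone marrow (BM) of WT mice, with 3 libraries each. The second compared neutrophils sorted in the same way from *Piezo1*-cKO mice and WT mice, from lung and from PB, with 2 libraries for each tissue and genotype. *Piezo1* encodes a mechanically gated cation channel, and *Piezo1*-cKO mice carry loxP sites around several of its exons and *Vav1-iCre*, which is active in all hematopoietic lineages and not in neutrophils alone. The third compared whole lungs of WT mice given an anti-Ly6G antibody, which depletes neutrophils, or an isotype control, with 3 libraries each. The methods give a general age of 7 to 12 weeks and both sexes, although some experiments used younger mice, and the age and sex behind each library, those of the depletion experiment included, are not given in the sources used here. The libraries of the first experiment came from 3 mice. For the other experiments the sources used here do not tie libraries to separate mice, so that their p values measure the spread between these libraries, which may be technical.

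Blood vessels grow when endothelial cells receive more stimulating than restraining signals. VEGFA acts on endothelial cells through the tyrosine kinase receptor KDR (VEGFR2), whereas VEGFB and placental growth factor (PGF) bind FLT1 (VEGFR1). Thrombospondin 1 restrains endothelial growth through CD36 and CD47 and can release TGF-β1 from its latent complex. HB-EGF signals through EGF receptors, and prokineticin 2, also called Bv8, is a secreted peptide known from myeloid cells. Urokinase, encoded by *Plau*, cuts plasminogen into plasmin while bound to its receptor on the cell surface, encoded by *Plaur*. Neutrophils carry and secrete VEGFA and are a known source of it in the lung.

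Stretches before the transcription start were available from RefSeq (GRCm38.p6) for 6 of the 9 genes, and are shown for 3 that the results turn on: *Vegfa* and *Plaur*, which were high in lung neutrophils, and *Prok2*, which was high in BM neutrophils. Each has the 250 bases before an annotated start, 5′ to 3′ on the strand of the gene. They lie at chr17:46032378-46032627 (minus strand), chr7:24462233-24462482 (plus strand) and chr6:99726393-99726642 (minus strand). RefSeq also lists an earlier start for *Plaur*, so that this window lies within its gene span. Capitals mark matches on either strand to AP-1 (TGANTCA), the hypoxia response core (ACGTG), the GC box (GGGCGG) or the κB consensus of 10 bases, of which overlapping matches run together.
Vegfa: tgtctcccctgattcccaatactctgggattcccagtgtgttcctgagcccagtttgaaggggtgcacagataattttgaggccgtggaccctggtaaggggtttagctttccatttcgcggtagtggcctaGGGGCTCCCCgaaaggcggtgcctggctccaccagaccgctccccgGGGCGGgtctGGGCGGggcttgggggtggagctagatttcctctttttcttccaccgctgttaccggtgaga
Plaur: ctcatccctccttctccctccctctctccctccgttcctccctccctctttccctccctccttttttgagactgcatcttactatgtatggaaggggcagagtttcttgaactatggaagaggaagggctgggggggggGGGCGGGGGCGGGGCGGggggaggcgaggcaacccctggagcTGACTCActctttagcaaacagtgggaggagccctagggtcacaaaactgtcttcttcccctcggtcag
Prok2: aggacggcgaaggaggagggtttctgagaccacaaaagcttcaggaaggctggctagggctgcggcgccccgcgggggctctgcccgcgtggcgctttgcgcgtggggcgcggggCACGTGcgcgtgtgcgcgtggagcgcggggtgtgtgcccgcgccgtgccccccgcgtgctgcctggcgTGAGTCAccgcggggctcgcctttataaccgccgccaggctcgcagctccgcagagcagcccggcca
The *Vegfa* window held a κB match 108 bases and GC boxes 66 and 56 bases before the start. Another *Vegfa* window, at chr17:46025164-46025413 and not shown, lies before a later start and within the gene span of *Vegfa*. This window held a hypoxia core 206 and a GC box 152 bases before its start. It held no κB match. *Tgfb1*, which was lower in lung than in PB neutrophils, had a κB match 130 bases before its start. The *Plaur* window held GC boxes 105, 99 and 94 bases before the start and an AP-1 match 62 bases before it. An AP-1 match also stood 60 bases before the start of *Prok2*, which was highest in BM neutrophils, together with a palindrome that holds the hypoxia core on both strands. Among all 32851 windows of this length, 6.75% held an AP-1 match, 16.6% the hypoxia core, 32.7% a GC box and 5.0% a κB match. A match describes letters and is not a shown binding site.

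Libraries of the tissue comparison held 16502142 to 19330763 recovered reads and those of the Piezo1 experiment 9621002 to 15034628, and the values used here are fragments per kilobase scaled to the mapped total (FPKM), which can be set side by side between genes because they are per length. A count of 0 allows up to 3 reads. Markers of neutrophils were high in every sorted group (7 of 7 with a mean of at least 1 FPKM), 5 endothelial markers summed to at most 0.523 FPKM, and 9 macrophage or monocyte markers summed to 63.8 to 174 FPKM, with only 2 to 5 of the 9 at a mean of at least 1. The PB libraries of *Piezo1*-cKO mice stood apart, since 5 erythroid markers summed to 1011 and 1136 FPKM there, against 24.8 and 26.7 in WT PB and at most 5.12 in the lung libraries of that experiment. *Piezo1* itself rested on 3 to 10 reads per library in the Piezo1 experiment which is too few to compare the genotypes, and reads over the whole gene do not isolate the deleted exons, so it does not check the genotype labels. A gene was called when limma gave an adjusted p below 0.05 and a difference above 1 in log2(FPKM + 1). The pseudocount makes differences of genes near or below 1 FPKM smaller than their folds, so folds of mean FPKM are given beside them.

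**Figure D1:**
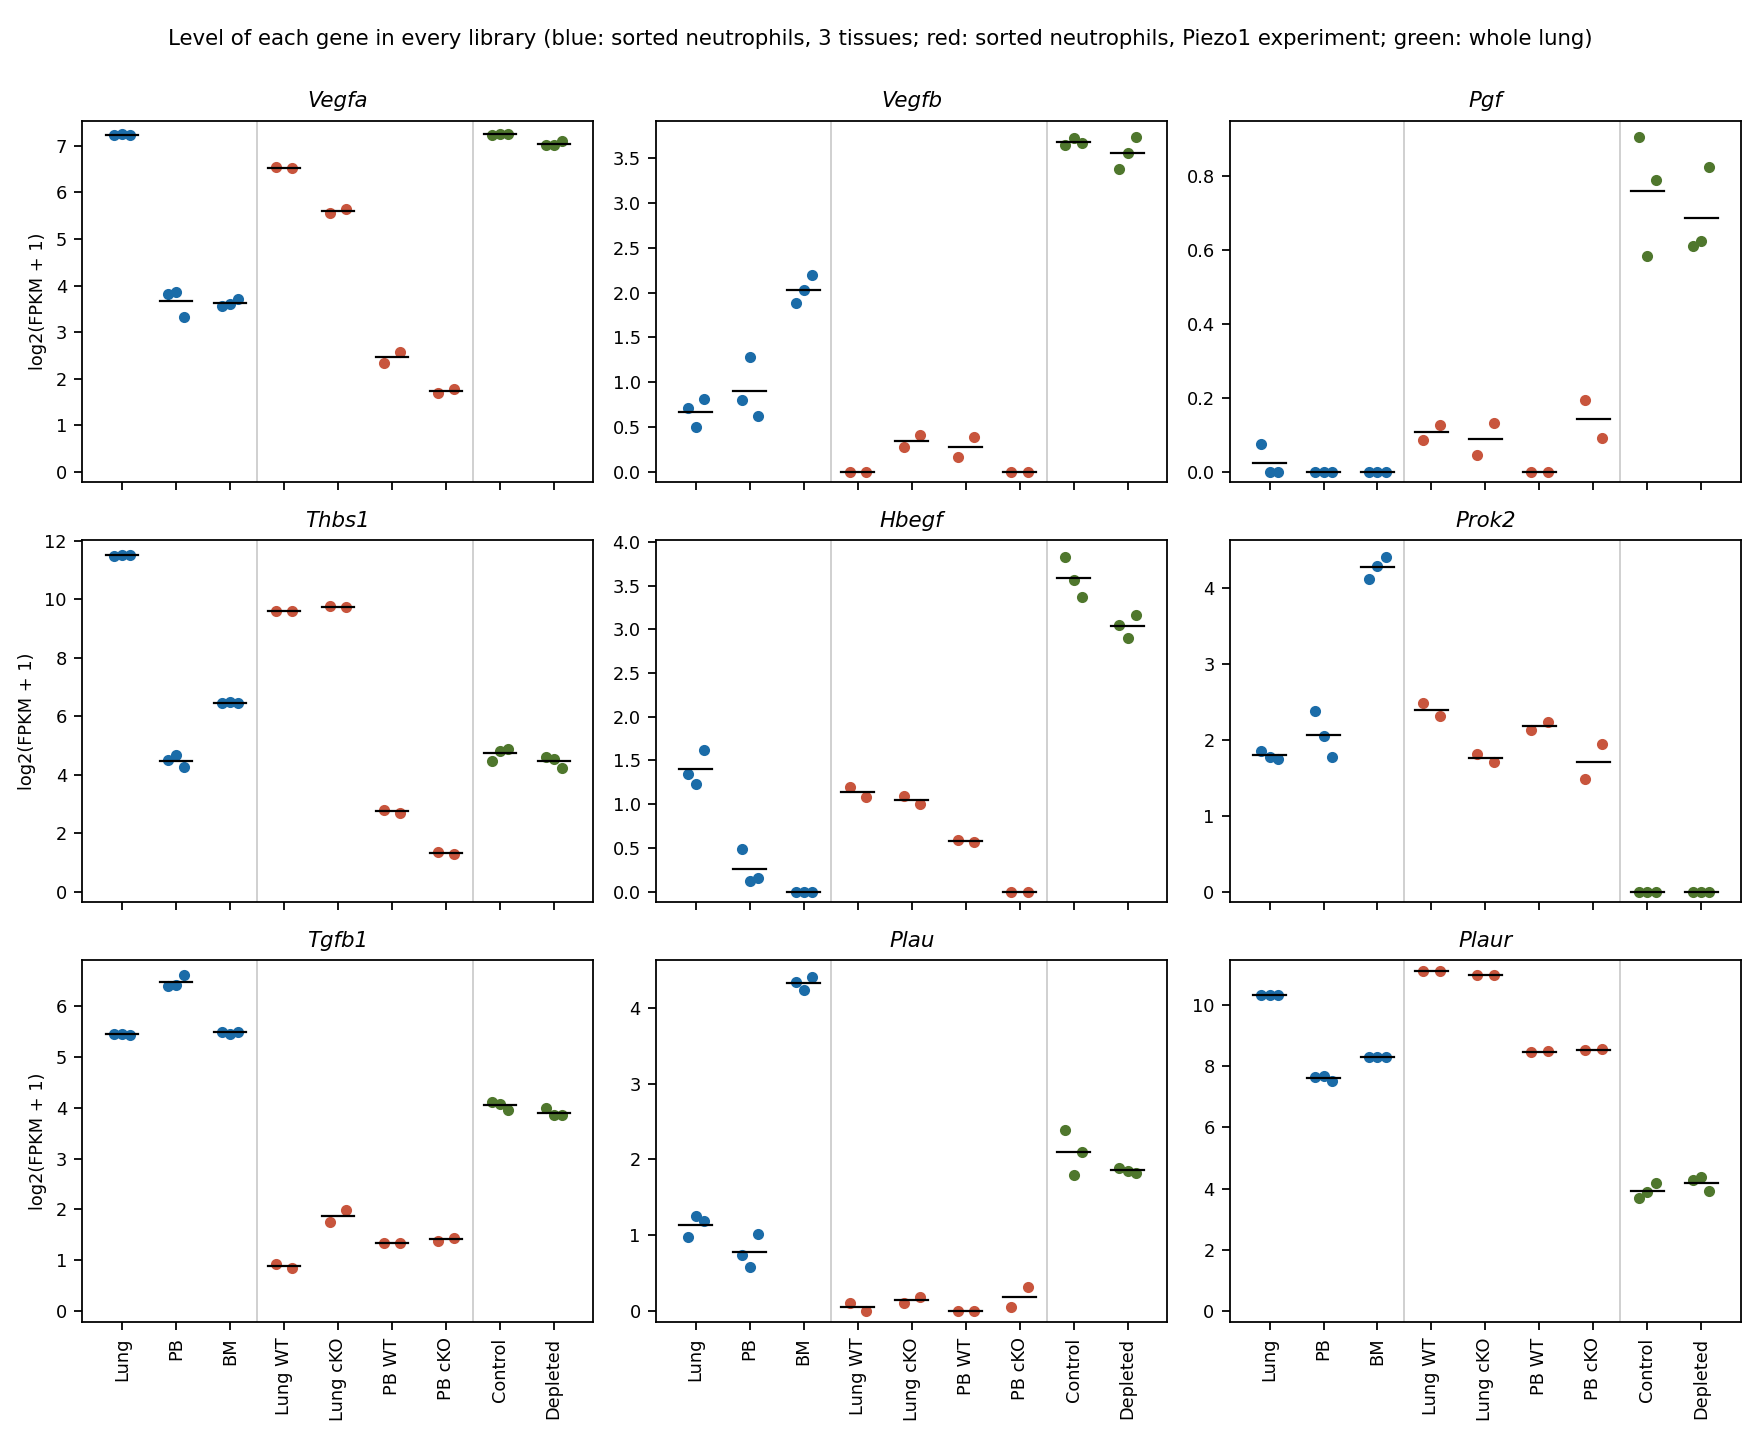
Level of the 9 genes as log2(FPKM + 1) in every library, with points for libraries and a line for the group mean, in sorted neutrophils of 3 tissues (blue), sorted neutrophils of the Piezo1 experiment (red) and whole lung (green). Among the sorted neutrophils, *Thbs1*, *Vegfa* and *Plaur* stand highest in lung and *Prok2*, *Plau* and *Vegfb* in BM. *Tgfb1* stands highest in PB neutrophils of the tissue comparison. *Vegfb* is higher in whole lung than in any sorted group.

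In WT mice, lung neutrophils carried the most mRNA for *Vegfa*, *Thbs1*, *Plaur* and *Hbegf*, BM neutrophils the most for *Prok2*, *Plau* and *Vegfb*, and PB neutrophils the most for *Tgfb1*. Of the 7 genes that passed the filter of 1 FPKM in at least 3 libraries, 4 were called higher and 1 lower in lung than in PB, where 7.75% of 7577 tested genes were called higher and 19.5% lower. Against BM, 4 of 8 were called higher and 3 lower in lung, beside 9.86% and 36.0% of 8236 genes. Between PB and BM, 0 of 7 were called higher and 4 lower in PB, beside 7.85% and 14.1% of 8237 genes. *Pgf*, *Vegfb* or *Hbegf* missed the filter in some of these comparisons and is given by its values. In lung against PB or BM, *Hbegf* passed it only through its lung libraries. Between lung and BM, *Vegfb* passed it only through its BM libraries. Between PB and BM, *Vegfb* and *Plau* passed it mainly through their BM libraries, with PB at 0.545 to 1.44 and 0.496 to 1.02 FPKM. The filter thus favoured the direction of these calls. In bulk RNA, fewer cells that express a gene and less RNA per cell cannot be told apart.

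The VEGF ligands divided by tissue. *Vegfa* (NCBI gene 22339, chromosome 17, 46016993 to 46032377 of GRCm38) had 149, 153 and 150.0 FPKM in lung neutrophils, 13.1, 13.5 and 9.03 in PB and 10.8, 11.2 and 12.1 in BM. Every lung library lay above every PB and BM library, and the ranges of PB and BM overlapped. Lung was 12.7-fold above PB, a log2 difference of 3.58 (standard error 0.13, limma adjusted p = 1.13e-07), and 13.3-fold above BM (3.62 ± 0.043 standard error, limma adjusted p = 4.5e-13), while PB and BM differed by 0.04 (95% interval -0.28 to 0.36, limma adjusted p = 0.805). In order of FPKM, *Vegfa* was between the 398th and 416th of all listed genes in the lung libraries and no higher than the 3128th in PB. *Vegfb* (NCBI gene 22340, chromosome 19, 6982472 to 6987651) had 2.68, 3.07 and 3.57 FPKM in BM, 0.637, 0.409 and 0.756 in lung and 0.749, 1.44 and 0.545 in PB. It fell from BM to lung by 1.36 and from BM to PB by 1.12 on the log2 scale (standard errors 0.11 and 0.17, limma adjusted p = 6.51e-07 and 0.000465), whereas lung and PB overlapped. *Pgf* (NCBI gene 18654, chromosome 12, 85166637 to 85177785) had 2 reads in 1 lung library and none in the other 8, within what a count of 0 allows.

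*Thbs1* (NCBI gene 21825, chromosome 2, 118111876 to 118127133), whose product restrains vessel growth, had the highest level of the 9 genes in lung neutrophils of the tissue comparison, whereas *Plaur* was higher in those of the Piezo1 experiment. It had 2871, 2923 and 2924 FPKM there, on 282180 to 293391 reads, and was between the 13th and 15th of all listed genes. BM libraries had 85.8, 89.2 and 85.7 FPKM and PB libraries 21.6, 24.4 and 18.3, so that the 3 tissues did not overlap. *Thbs1* thus fell from BM to PB, by 1.98 on the log2 scale (standard error 0.10, limma adjusted p = 6.05e-07), although lung exceeded both. The 9 macrophage or monocyte markers summed to 125 to 128 FPKM in lung, 156 to 171 in PB and 63.8 to 68.2 in BM. By their means, *Adgre1* and *Csf1r* were highest in PB and *Mrc1*, *C1qa*, *C1qb*, *C1qc* and *Mertk* in BM. *Marco* and *Ccr2* were highest in lung, at 0.0294 and 0.249 FPKM. The part of these markers in the level of *Thbs1* was not tested. Lung was 33.4-fold above BM, a log2 difference of 5.05 (standard error 0.021, limma adjusted p = 6.06e-16), and 136-fold above PB. *Thbs1* is abundant in platelets. The 8 platelet or megakaryocyte markers summed to 9.13 to 9.58 FPKM in lung, 8.42 to 9.45 in PB and 27.5 to 29.2 in BM, mostly from *Itgb3*. Of these markers *Pf4*, *Ppbp* and *Gp1ba* had higher means in lung than in PB (0.467, 0.817 and 0.0138 against 0, 0 and 0.00668 FPKM). *Itga2b*, *Itgb3*, *Gp1bb*, *Gp9* and *Treml1* had lower means in lung (1.45, 6.43, 0.0756, 0.00648 and 0.0323 against 1.9, 6.6, 0.123, 0.012 and 0.188 FPKM). The part of the platelet markers in the level of *Thbs1* was not tested either. A lincRNA gene lies within *Thbs1* on the other strand, and whether reads were counted by strand is not given in the sources used here.

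*Hbegf*, *Prok2* and *Tgfb1* had 3 different orders among the tissues. *Hbegf* had 1.55, 1.35 and 2.07 FPKM in lung on 55 to 81 reads, 0.404, 0.0914 and 0.113 in PB on 4 to 17 reads, and no reads in BM. Lung was 8.15-fold above PB, with a log2 difference of 1.14 that the pseudocount makes small (standard error 0.14, limma adjusted p = 8.41e-05). With BM set at 3 reads per library, lung was at least 24.8-fold higher. *Prok2* (NCBI gene 50501, chromosome 6, 99711299 to 99726392) had 16.4, 18.5 and 20.2 FPKM in BM, 2.62, 2.43 and 2.36 in lung and 4.22, 3.12 and 2.42 in PB. BM stood above both, 7.44-fold over lung (log2 difference of lung -2.48 ± 0.076 standard error, limma adjusted p = 4.77e-10) and 5.65-fold over PB, and lung and PB overlapped with a difference of -0.27 (95% interval -0.61 to 0.07, limma adjusted p = 0.115). An antisense gene overlaps the start of *Prok2*. *Tgfb1* (NCBI gene 21803, chromosome 7, 25687002 to 25705077) had 83.0, 83.5 and 96.6 FPKM in PB, 42.7, 42.8 and 42.0 in lung and 43.6, 42.8 and 44.0 in BM. PB was 2.06-fold above lung (log2 difference of lung -1.03 ± 0.068 standard error, limma adjusted p = 2.83e-06) and 2.02-fold above BM, the latter at 0.99 just under the fold threshold (limma adjusted p = 4.33e-06) and above it after rescaling (1.12) and with limma-voom or a pseudocount of 0.1 (1.01 each). The call of *Tgfb1* between lung and PB was lost without PB replicate 3, at -0.95.

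The receptor of the urokinase system was highest in lung and the enzyme in BM, while both had their lowest mean in PB. *Plaur* (NCBI gene 18793, chromosome 7, 24460937 to 24475970), the receptor, had 1279.6, 1280.1 and 1268 FPKM in lung, 197, 201 and 180.1 in PB and 310.3, 309.8 and 313 in BM. The 3 tissues did not overlap, with lung 6.62-fold above PB (log2 difference 2.72 ± 0.058 standard error, limma adjusted p = 6.6e-09) and 4.1-fold above BM (2.03 ± 0.016 standard error, limma adjusted p = 3.16e-14). *Plau* (NCBI gene 18792, chromosome 14, 20836662 to 20843388), which encodes urokinase, had 19.2, 17.7 and 20.2 FPKM in BM, 0.972, 1.39 and 1.27 in lung and 0.672, 0.496 and 1.02 in PB. BM exceeded lung 15.7-fold (log2 difference of lung -3.18 ± 0.084 standard error, limma adjusted p = 1.47e-10) and PB 26.0-fold, whereas lung and PB overlapped and their difference of 0.36 was under the fold threshold (limma adjusted p = 0.0299, and 0.11 without PB replicate 2).

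FPKM summed to different totals, and the median of all tested genes was -0.54 for lung against PB, -0.70 for lung against BM and -0.12 for PB against BM. Rescaling to a common median ratio moved these medians by 0.52, 0.66 and 0.12, and moved the share of calls that were higher in lung from 28.5% to 66.4% against PB and from 21.5% to 57.1% against BM. Relative to the median gene, the lung-PB differences of *Thbs1*, *Vegfa*, *Plaur* and *Hbegf* were 7.56, 4.12, 3.26 and 1.68, and that of *Tgfb1* was -0.49. After rescaling, *Tgfb1* was no longer called between lung and PB, at -0.41 (limma adjusted p = 0.00183), and between lung and BM it moved from -0.03 to 0.78. *Prok2* turned from -0.27 to 0.19 between lung and PB (limma adjusted p = 0.253 after rescaling). *Vegfb* between lung and BM went to -0.88, under the fold threshold, while the other calls of the 9 genes between these tissues held.

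The high level in lung was also present in the second experiment, in both genotypes. In WT, 3 of 6 tested genes were called higher and 0 lower in lung than in PB, beside 7.50% and 26.5% of 7143 genes, and in *Piezo1*-cKO mice 4 of 6 higher and 0 lower, beside 7.93% and 23.0% of 7163 genes. Of all calls, 22.1% were higher in lung in WT and 25.7% in *Piezo1*-cKO, and 59.1% and 62.9% after rescaling. *Vegfa* had 92.3 and 91.0 FPKM in WT lung and 4.09 and 4.93 in PB of these mice, a 20.3-fold difference (log2 4.08 ± 0.077 standard error, limma adjusted p = 1.12e-08). In *Piezo1*-cKO mice it had 46.4 and 48.9 FPKM in lung and 2.24 and 2.42 in PB, a 20.5-fold difference (log2 3.87 ± 0.072 standard error, limma adjusted p = 8.44e-08). The level of *Vegfa* thus differed between genotypes while its ratio between the tissues was nearly the same. *Thbs1* had 781 and 775 FPKM in WT lung and 5.93 and 5.51 in PB, again 136-fold (log2 6.86 ± 0.041 standard error, limma adjusted p = 8.57e-11). In *Piezo1*-cKO mice it had 875 and 850.2 FPKM in lung and 1.56 and 1.44 in PB, which is 575-fold (log2 8.43 ± 0.055 standard error, limma adjusted p = 6.8e-09) and ranked 1st of all tested genes.

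*Plaur* had 2167 and 2173 FPKM in WT lung against 351 and 356 in PB of WT mice. It had 1985 and 2001 in *Piezo1*-cKO lung against 367 and 372 in *Piezo1*-cKO PB. Lung exceeded PB 6.14-fold and 5.39-fold, and the groups did not overlap. *Hbegf* had 1.3 and 1.12 FPKM in WT lung and 0.511 and 0.477 in PB, a log2 difference of 0.56 that was under the fold threshold (limma adjusted p = 0.000569) although the mean FPKM was 2.45-fold higher. It had 1.14 and 1.0 FPKM in *Piezo1*-cKO lung and no reads in *Piezo1*-cKO PB, so that lung was at least 9.74-fold higher. In both genotypes *Hbegf* passed the filter only through its lung libraries. *Prok2* did not pass the test between lung and PB in either genotype, with 0.22 in WT and 0.05 in *Piezo1*-cKO (limma adjusted p = 0.0679 and 0.777), whereas after rescaling the differences were 0.79 and 0.49, still under the fold threshold (limma adjusted p = 0.000218 and 0.0285). *Tgfb1* was lower in lung in WT, by -0.46, and higher in *Piezo1*-cKO, by 0.45 (limma adjusted p = 0.00165 and 0.00781), both under the fold threshold and at 26 to 92 reads per library. In WT it passed the filter only through its PB libraries, which favoured that direction, whereas in *Piezo1*-cKO both tissues passed. After rescaling the differences of *Tgfb1* were -0.07 in WT and 0.87 in *Piezo1*-cKO (limma adjusted p = 0.507 and 0.000575). *Plau* had 0 to 9 reads per library, *Vegfb* 0 to 6 and *Pgf* 0 to 3, and were not tested.

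**Figure D2:**
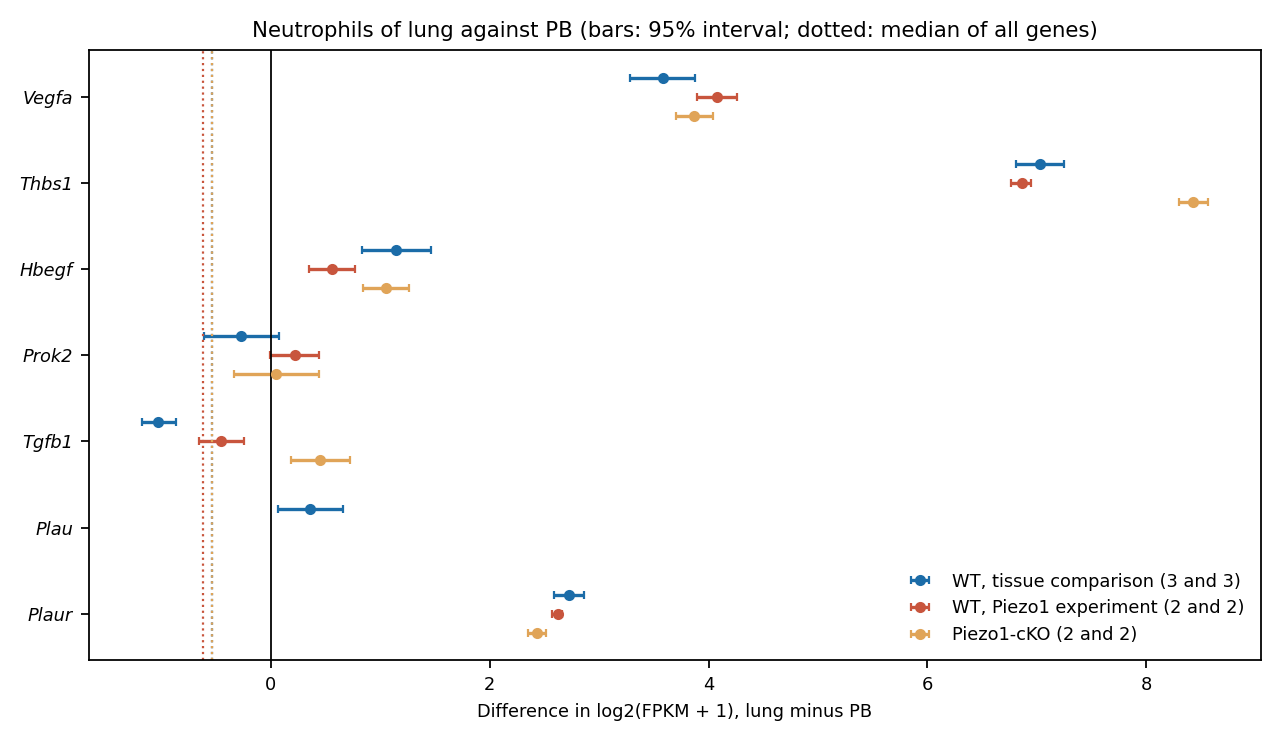
Difference in log2(FPKM + 1) between lung and PB neutrophils for the genes tested in WT mice of the tissue comparison (3 and 3 libraries), WT mice of the Piezo1 experiment (2 and 2) and *Piezo1*-cKO mice (2 and 2), with 95% intervals from limma and dotted lines at the median of all genes. *Thbs1*, *Vegfa* and *Plaur* lie above 2.4 in each setting, and *Tgfb1* lies at -1.03, -0.46 and 0.45.

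The comparison of genotypes asked which of these levels differed without *Piezo1* in hematopoietic cells. In lung neutrophils *Vegfa* and *Prok2* were lower in *Piezo1*-cKO, by 48.0% and 43.9% of the WT mean FPKM, and *Tgfb1* was 3.16-fold higher from a low level, whereas *Thbs1* and *Plaur* differed by 10.9% or less. In PB neutrophils *Thbs1* was 73.8% lower, *Vegfa* 48.3% lower and *Prok2* 34.3% lower, the last with a test that depended on single libraries. By both thresholds, 0 of 6 tested genes were called in lung, where 0.995% of 6434 genes were, and 1 of 5 in PB, *Thbs1*, where 3.65% of 7256 genes were. By the adjusted p alone, 2 of 6 were higher and 3 lower in *Piezo1*-cKO lung, beside 35.0% and 15.8% of all genes, and 0 of 5 were higher and 3 lower in *Piezo1*-cKO PB, beside 26.5% and 23.2%. In lung, limma-voom on recovered reads called *Tgfb1* alone of the 6 (1.63, adjusted p = 2.6e-06), and its calls over all genes are given below. By limma-trend 5 of the 6 had an unadjusted p below 0.05, as had 3691 of all 6434 genes. Of the genes called in lung, 79.7% were higher in *Piezo1*-cKO, and 66.0% after rescaling.

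*Vegfa* in *Piezo1*-cKO lung lay below WT in both libraries, with a log2 difference of -0.93 (95% interval -1.02 to -0.84, limma adjusted p = 2.84e-05), close to the fold threshold, and -1.04 after rescaling. In PB its difference was -0.72 (-0.98 to -0.46, limma adjusted p = 0.00214) on 90 to 309 reads. The difference between these effects was -0.21 (standard error 0.11, limma adjusted p = 0.151), and -0.38 after rescaling (limma adjusted p = 0.0173). It was -0.32 without the second WT PB library (limma adjusted p = 0.0337). With limma-voom on recovered reads, which has no pseudocount, it was -0.00 (standard error 0.15, adjusted p = 0.994). *Prok2* had 4.57 and 3.96 FPKM in WT lung against 2.51 and 2.27 in *Piezo1*-cKO lung, a difference of -0.63 (-0.87 to -0.39, limma adjusted p = 0.0023). In PB its WT libraries had 3.36 and 3.7 FPKM and its *Piezo1*-cKO libraries 1.79 and 2.85 (-0.47, -0.84 to -0.10, limma adjusted p = 0.0424). That pass was lost with no filter (limma adjusted p = 0.117) and without either WT library or the first *Piezo1*-cKO library, and the difference ran from -0.70 to -0.23 with libraries left out (-0.23 without the first *Piezo1*-cKO library). In each tissue the genotypes did not overlap at *Prok2*. *Tgfb1* had 0.895 and 0.795 FPKM in WT lung and 2.37 and 2.97 in *Piezo1*-cKO lung, a difference of 0.99 (0.73 to 1.25, limma adjusted p = 0.000587). In lung it passed the filter only through its *Piezo1*-cKO libraries, so that the filter favoured this direction. The macrophage or monocyte markers summed to 119.8 and 122 FPKM in WT lung and 149 and 149.7 in *Piezo1*-cKO lung, with 4 and 5 of the 9 at 0. The 7 neutrophil markers summed to 89978 and 93396 FPKM in WT lung and 68448 and 72828 in *Piezo1*-cKO lung, without overlap. The part of either list in the genotype differences in lung was not tested. In PB *Tgfb1* was at 1.53 and 1.53 against 1.62 and 1.72 FPKM (0.08, limma adjusted p = 0.544).

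*Thbs1* was lower in *Piezo1*-cKO in PB, and its genotype difference in lung was small and depended on the scaling. In lung it was 0.15 (95% interval 0.10 to 0.20, limma adjusted p = 0.00154), and 0.04 after rescaling, where it no longer passed (limma adjusted p = 0.206). In PB it fell to 88 and 119 reads from 457 and 484 in WT (-1.43, -1.65 to -1.20, limma adjusted p = 0.000265). The platelet markers summed to 3.66 and 3.23 FPKM in PB of WT mice and 2.23 and 2.37 in PB of *Piezo1*-cKO mice, and the erythroid markers rose there as given above, to 1011 and 1136 of 559272.5 and 578368.3 FPKM in all. Their part in the difference of *Thbs1* was not tested. *Hbegf*, with 16 and 17 reads in WT PB and none in *Piezo1*-cKO PB, was below the filter there and at least 4.48-fold higher in WT. In lung it did not pass the test (-0.09, -0.32 to 0.14, limma adjusted p = 0.461). *Plaur* differed by -0.12 in lung (limma adjusted p = 0.00101) and 0.06 in PB (limma adjusted p = 0.198). In the test of whether the genotype effect differed between the tissues, 4 of 6 genes passed, beside 48.2% of 7560 genes, namely *Thbs1* at 1.57 (standard error 0.067), *Tgfb1* at 0.91, *Hbegf* at 0.49 and *Plaur* at -0.19 (limma adjusted p = 6.81e-06, 0.00109, 0.0112 and 0.00223). The share of passing genes with a positive difference was 61.6%, and 47.3% after rescaling, where *Hbegf* no longer passed (0.29, limma adjusted p = 0.0862).

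**Figure D3:**
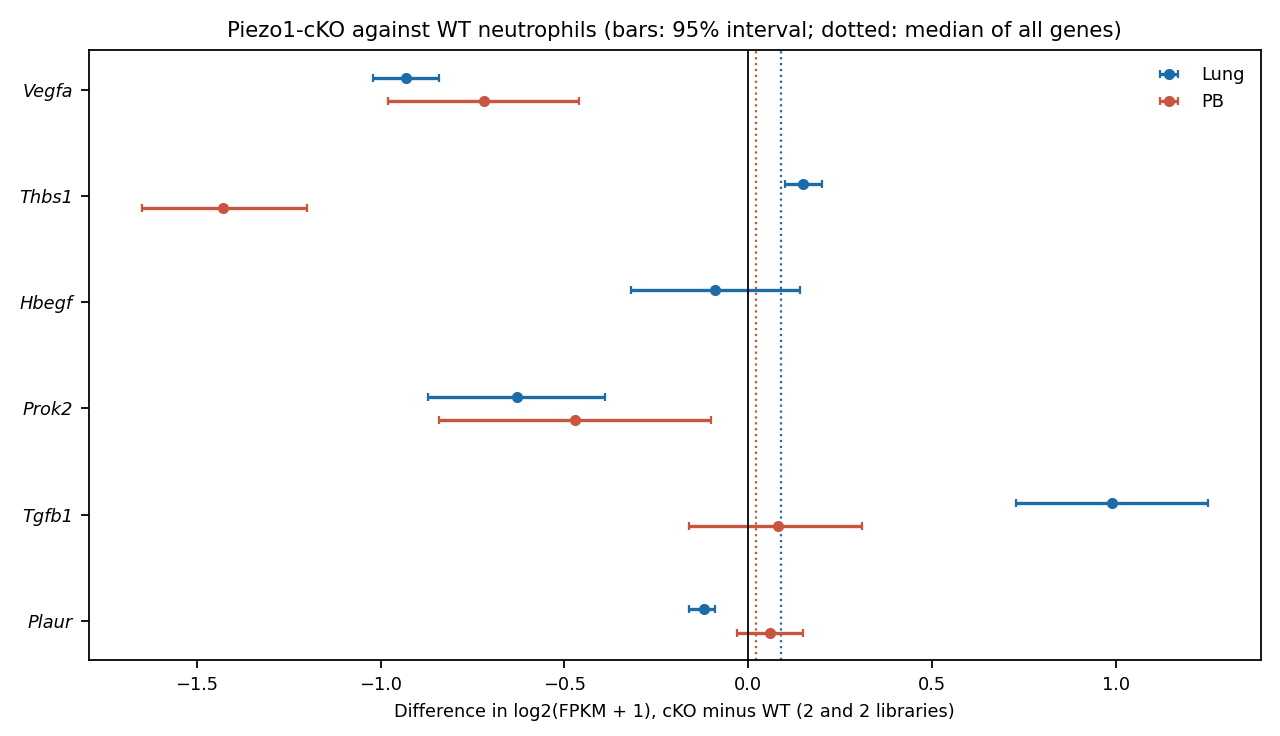
Difference in log2(FPKM + 1) between *Piezo1*-cKO and WT neutrophils in lung and in PB (2 and 2 libraries each), with 95% intervals from limma and dotted lines at the median of all genes. *Vegfa* lies at -0.93 and -0.72, while *Thbs1* lies at 0.15 in lung and -1.43 in PB.

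**Figure D4:**
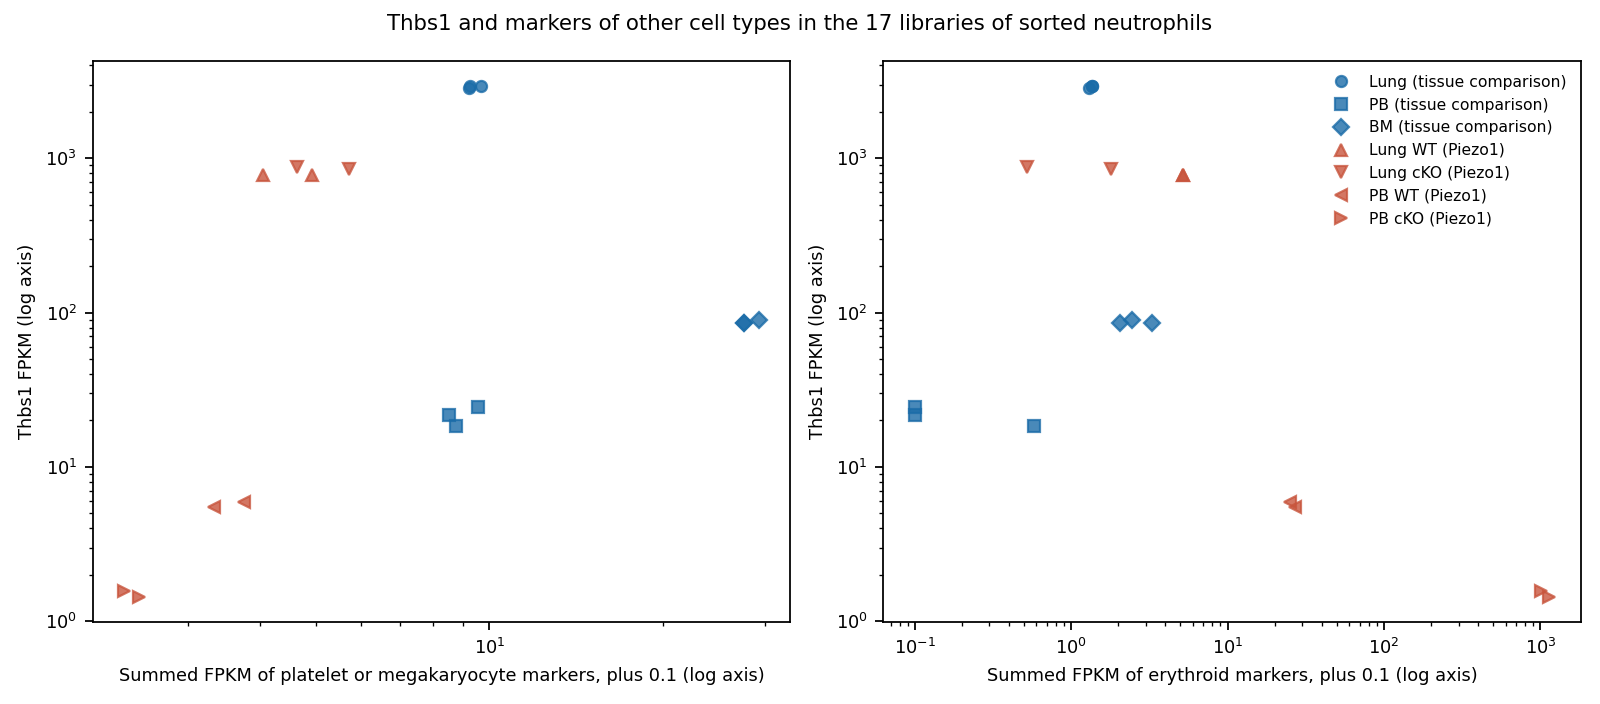
*Thbs1* FPKM against the summed FPKM of 8 platelet or megakaryocyte markers (left) and 5 erythroid markers (right) in the 17 libraries of sorted neutrophils, on log axes with 0.1 added to the sums. Platelet sums, mostly *Itgb3*, are 9.13 to 9.58 FPKM in lung and 8.42 to 9.45 in PB of the tissue comparison. Single platelet markers were higher in lung or in PB there. *Piezo1*-cKO PB libraries stand apart by their erythroid sums.

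In whole lung, which holds all cell types of the organ, none of the 9 genes was called after neutrophil depletion, at an adjusted p below 0.05 and a difference above 0.5. Of 7 tested genes 0 were called, beside 0.00715% of 13990 genes (1 gene, *Aqp5*), and 2 of 7 had an unadjusted p below 0.05, beside 11.2% of all genes. *Hbegf* had 13.2, 10.8 and 9.36 FPKM in control and 7.31, 6.49 and 7.96 in depleted lungs, without overlap. Its difference was -0.54 (95% interval -0.85 to -0.23, limma adjusted p = 0.219), with 34.7% less FPKM. *Vegfa* had 149.9, 153 and 152 FPKM in control and 129, 129 and 136 in depleted lungs, also without overlap (-0.21, -0.35 to -0.06, limma adjusted p = 0.295). The share of all genes whose groups do not overlap was not counted. The control mean of *Vegfa* was 152 FPKM, beside 151 in WT lung neutrophils of the tissue comparison and 91.7 in those of the Piezo1 experiment, from tables normalized separately. *Thbs1* had 21.3, 27.1 and 28.6 FPKM in control and 23.3, 22.4 and 17.9 in depleted lungs. The control and depleted ranges overlapped for *Thbs1* (-0.26, -0.59 to 0.07), *Vegfb* (-0.12, -0.35 to 0.11), *Tgfb1* (-0.15, -0.33 to 0.04), *Plau* (-0.24, -0.59 to 0.11) and *Plaur* (0.28, -0.10 to 0.66). *Pgf* had 0.871, 0.497 and 0.727 FPKM in control and 0.526, 0.54 and 0.77 in depleted lungs, below the filter, and *Prok2* was listed at 0 in all 6 libraries. Depletion was visible at neutrophil markers, with *S100a8* at 41.2, 35.0 and 35.1 FPKM in control and 20.2, 14.3 and 6.78 in depleted lungs (limma adjusted p = 0.192), while *Ly6g* was at most 0.577 FPKM in any library. Other markers were also lower without overlap, with 5 lymphocyte markers at summed levels of 54.9 to 59.1 FPKM in control and 22.1 to 47.3 in depleted lungs and 5 fibroblast markers at 275 to 310.2 and 195 to 256. Their part in the levels of *Hbegf* and *Vegfa* was not tested.

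**Figure D5:**
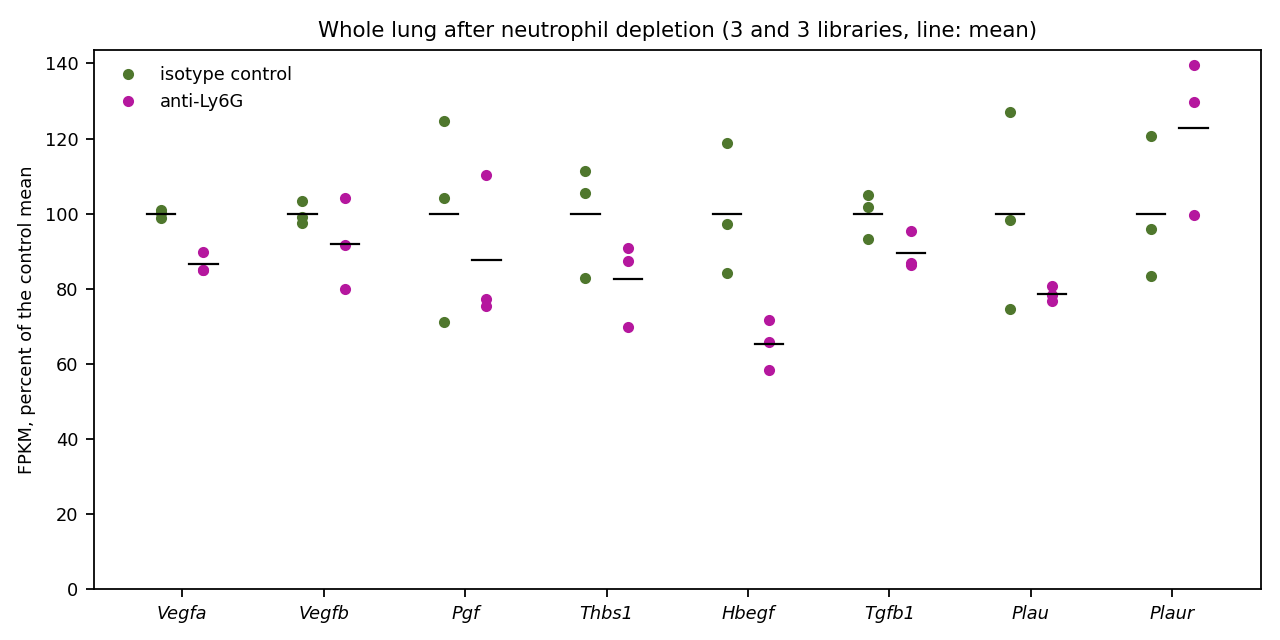
FPKM of 8 of the 9 genes in whole lung as a percentage of the mean of the control lungs, for isotype control and anti-Ly6G libraries (3 each, line: mean), leaving out *Prok2*, which was listed at 0. *Vegfa* and *Hbegf* had an unadjusted limma p below 0.05, as had 11.2% of all tested genes, and none of the genes passed the adjusted test.

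The wider pathways were followed with 74 further genes in lists of VEGF, EGF receptor, prokineticin, TGF-β, thrombospondin, plasminogen and other angiogenic genes. Most were not expressed enough in neutrophils to be tested. Between lung and PB of the tissue comparison 18 of 74 were tested, 5 called higher and 2 lower, beside 7.75% and 19.5% of all genes, with a median of 0.01 beside -0.54. Between lung and BM 20 were tested, 5 called higher and 4 lower, beside 9.86% and 36.0%, with a median of 0.18 beside -0.70. Between PB and BM 17 were tested, 3 called higher and 3 lower, beside 7.85% and 14.1%, with a median of 0.12 beside -0.12. In the Piezo1 experiment, 4 of 16 were called higher and 1 lower in lung than in PB in WT, beside 7.50% and 26.5%, and 4 and 2 of 18 in *Piezo1*-cKO, beside 7.93% and 23.0%. Between genotypes 0 of 18 in lung and 0 of 12 in PB were called, beside 0.995% and 3.65%, and in whole lung 0 of 59, beside 0.00715%.

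The 5 genes called higher in lung than in PB were *Areg*, *Serpinb2*, *Plgrkt*, *Lrp1* and *Cxcl10*. *Areg*, which encodes amphiregulin, a ligand of the EGF receptor like HB-EGF, had 3.31 ± 0.712 FPKM in lung (SD, n = 3) and no reads in PB or BM, so that lung was at least 24.5-fold and 25.4-fold higher. It was also at 0 in PB of both genotypes, and in lung it had 4.04 ± 1.1 FPKM in WT and 2.08 ± 0.488 in *Piezo1*-cKO (SD, n = 2 each; -0.70, limma adjusted p = 0.0149). *Serpinb2*, the plasminogen activator inhibitor PAI-2, had 3.09 ± 0.45 FPKM in lung (SD, n = 3) and was at 0 in PB, at least 41.8-fold lower. *Plgrkt*, a plasminogen receptor, had 37.6 ± 1.42 FPKM in lung, 15.5 ± 5.97 in PB and 11.5 ± 0.258 in BM (SD, n = 3 each). It rose from PB to lung by 1.29 and from BM to lung by 1.62 (limma adjusted p = 0.000998 and 1.28e-10). *Lrp1*, which clears protease complexes, had 2.98 ± 0.271 FPKM in lung against 0.264 ± 0.149 in PB. *Cxcl10*, an angiostatic chemokine, had 21.9 ± 2.32 FPKM in lung, 5.04 ± 1.15 in PB and 0.644 ± 0.313 in BM, rising by 1.94 from PB to lung (limma adjusted p = 6.01e-06). Of the 8 plasminogen genes beside *Plau* and *Plaur*, 3 were tested between lung and PB and called higher in lung. At *Serpinb2* and *Lrp1*, as at *Areg*, only the lung libraries passed the filter of 1 FPKM. The filter thus favoured that direction for them, whereas *Plgrkt* passed it in both tissues.

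Of 20 further genes of the TGF-β list 9 were tested between lung and PB, 0 called higher and 2 lower (*Tgfbr1* and *Smad2*), with a median of -0.54 equal to that of all genes. *Tgfbr1*, the type I receptor, had 5.85 ± 0.00927 FPKM in lung, 18.5 ± 0.216 in PB and 13.5 ± 0.487 in BM, and fell by 1.51 from PB to lung (limma adjusted p = 1.17e-07). *Acvrl1*, which encodes the receptor ALK1, had 89.0 ± 2.13 FPKM in BM against 5.05 ± 0.317 in lung and 3.26 ± 0.569 in PB. *Nrp1*, a VEGF co-receptor, was likewise at 5.9 ± 0.126 FPKM in BM and at 0.142 ± 0.0523 in lung, a fall of 2.60 from BM to lung (limma adjusted p = 1.91e-10). *Nrp1* passed the filter there only through its BM libraries, so that the filter favoured this direction. *Kdr*, the main VEGFA receptor, had a mean of at most 0.0686 FPKM in sorted neutrophils and 43.9 ± 8.92 in control whole lung. Of the thrombospondin receptors, *Cd47* had 37.3 ± 0.924 FPKM in lung, 44.6 ± 0.921 in PB and 65.8 ± 1.9 in BM (SD, n = 3 each), and *Cd36* had a mean of at most 0.224 FPKM in each of them. *Tgfbr1*, named here after its values were seen, was higher in *Piezo1*-cKO in lung (0.99) and in PB (0.72), at 6.88 against 2.98 and 9.39 against 5.29 FPKM (limma adjusted p = 0.000216 and 0.000637), both under the fold threshold.

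Genes whose pattern over the 9 tissue libraries was nearest were ranked by Pearson's r of log2(FPKM + 1) among 5767 genes with at least 5 FPKM in 3 libraries. These libraries fall into 3 tissues, so that a high r says mainly that the tissue means have the same order and spacing, and 129 genes had an r above 0.99 with *Vegfa*. Nearest to *Thbs1* were *Plaur* (0.9995), *Il2rg* (0.9985) and *H2-Aa* (0.9984), and nearest to *Plaur* were *Thbs1*, *Il2rg* (0.9994) and *H2-Aa* (0.9989). Over the 8 libraries of the Piezo1 experiment, *Thbs1* and *Plaur* had an r of 0.988. Nearest to *Vegfa* were *Fbxo11* (0.9994), *Arl5b* (0.9989) and *Usp16* (0.9989), with 0.875, 0.969 and 0.947 over the Piezo1 libraries. *Hbegf* was nearest to *Tox4*, *Neu1* and *Zbtb21* (0.9879, 0.9866 and 0.9852). *Prok2* was nearest to *Tex15*, *Kif13b* and *Lrmp* (0.998, 0.9974 and 0.9973), which did not carry over to the Piezo1 libraries, where r was -0.768, -0.141 and -0.696.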

How the data were processed

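mRNA of sorted neutrophils (lung, PB and BM in the tissue comparison, lung and PB in the Piezo1 experiment) and of whole lung was measured by bulk RNA-Seq. The deposited values are FPKM, made by the authors for each gene from paired-end reads using fastp, HISAT2 (mm10) and HTSeq, named without versions in the submitters' processing notes. The methods of the study name a VAHTS kit and the labels a SMARTER kit. The Piezo1 tables also hold fold changes, p values and q values that the authors made with DESeq2, which were not used.

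Reads were recovered as whole multiples of the FPKM step in sorted neutrophils (100.0% of nonzero values within 0.03 reads) and not in whole lung, whose depth is unknown. Limits from a count of 0 cover counting error only and are set per library. Groups follow the labels. Each comparison used its own libraries and limma-trend (limma 3.58.1, R 4.3.3, robust eBayes) on log2(FPKM + 1), among genes with at least 1 FPKM in 3 libraries, or in 2 for the Piezo1 experiment, and p values were adjusted over all tested genes (Benjamini-Hochberg). The difference of genotype effects used all 8 libraries and the adjusted p alone. Intervals are 95%. Alternatives were a pseudocount of 0.1, no filter, median-ratio rescaling, a replicate block, all libraries of an experiment in 1 fit, another call threshold, limma-voom on recovered reads, and each library left out.

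The 9 genes, the lists and the tests were chosen with earlier results of these data known. Genes named from a list were the up to 4 with the largest called difference whose groups did not overlap in each comparison, of which the text gives those most different between tissues. *Kdr*, *Cd47* and *Cd36* were named for their roles, with their values known. Patterns were ranked for *Vegfa*, *Thbs1*, *Hbegf*, *Prok2* and *Plaur*, 3 genes each. Scripts were tested on simulated data. Tables and figures used Python 3.11.15, pandas 2.3.3, numpy 2.4.6, scipy 1.17.1 and matplotlib 3.10.9.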

Additional observations from a re-analysis of the deposited data

Results flagged for a closer look

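The genotype effect differed between lung and PB, by limma's interaction term over the 8 libraries, at 4 of the 6 genes tested, beside 48.2% of all genes. The effect in lung minus that in PB was 1.57 at *Thbs1* (standard error 0.067, limma adjusted p = 6.81e-06), 0.91 at *Tgfb1* (standard error 0.14, limma adjusted p = 0.00109), 0.49 at *Hbegf* (standard error 0.12, limma adjusted p = 0.0112) and -0.19 at *Plaur* (standard error 0.033, limma adjusted p = 0.00223). Of 14 alternatives, 14 kept the result at *Thbs1*, 13 at *Tgfb1* and *Plaur* and 12 at *Hbegf*, which no longer passed after rescaling (0.29, limma adjusted p = 0.0862). When a difference above 1 was also asked, *Thbs1* alone of the 4 passed.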

How the results depend on the processing

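*Thbs1*, *Vegfa* and *Plaur* kept their calls between lung and PB under every alternative in all 3 settings, at 6.92 to 7.63, 3.41 to 4.17 and 2.68 to 3.34 in the tissue comparison. Of 680 values of a gene under an alternative, 638 kept their direction and side of the threshold and 7 turned direction. Rescaling turned *Prok2* between lung and PB (0.19) and *Tgfb1* between lung and BM (0.78). With libraries left out, *Vegfa* between PB and BM ran from -0.06 to 0.21, *Prok2* between lung and PB of *Piezo1*-cKO from -0.18 to 0.28, and the difference of genotype effects at *Prok2* from -0.40 to 0.07. None of these had passed the test as reported. *Vegfb* between PB and BM lost its call without PB replicate 3 (-0.99).

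The count of the 9 genes called between genotypes in lung moved from 0 to 1 with a pseudocount of 0.1, with rescaling and with limma-voom, to 5 by the adjusted p alone, and ran from 0 to 1 with libraries left out (1 without WT lung replicate 1, where *Tgfb1* was at 1.03). By the adjusted p alone it moved from 1 to 3 between genotypes in PB and from 3 to 5 between lung and PB in WT of the Piezo1 experiment, and for the difference of genotype effects it moved from 4 to 1 when a difference above 1 was also asked. Over all genes, the 64 calls between genotypes in lung became 332 with a pseudocount of 0.1 and 378 with limma-voom, the 265 in PB became 672 and 735, and 174 without WT PB replicate 1, and the 2429 between lung and PB in WT became 1576 after rescaling. The adjusted p alone called 6479, 7628 and 6023 genes between the 3 tissues, and 3265, 3607, 6360 and 6054 in the Piezo1 experiment. The difference of genotype effects passed at 5509 genes with no filter. The 1 gene called in whole lung became 0 with no filter, 4 with a pseudocount of 0.1, 5 with the replicate block and 0 to 12 with libraries left out (12 without depleted replicate 1, 0 without control or depleted replicate 3), while the 9 genes kept a count of 0. The cause of these shifts was not tested.

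Deviations of libraries with the same replicate number correlated between -0.089 and 0.0789, which cannot decide whether the samples were paired. With 2 libraries per group, both numbers give the same value by construction. The tissues of the first experiment came from 3 mice, and the main tests did not pair them. Whether the replicate number names the mouse is not given in the sources used here. With the replicate block, each tested gene of the 9 kept the call, or the lack of a call, that it had without the block in every comparison. Low reads limit *Pgf*, *Plau*, *Vegfb* and *Hbegf* in sorted neutrophils.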

Other observations

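Levels of the same gene in the same tissue of WT mice differed between the tissue comparison and the Piezo1 experiment. *Tgfb1* had 42.5 ± 0.467 FPKM in lung and 87.7 ± 7.71 in PB in the first (SD, n = 3 each) against 0.845 ± 0.0708 and 1.53 ± 0.0025 in the second (SD, n = 2 each), which is 50.3-fold and 57.2-fold. *Thbs1* was 3.74-fold higher in lung in the first and *Plau* had 0.972 to 1.39 FPKM there against 0 and 3 reads in the second, whereas *Plaur* was at 0.588 of its level in the second. Of 6332 genes compared in lung, 228 (3.6%) were over 10-fold higher in the tissue comparison and 1 in the Piezo1 experiment, with a median ratio of 1.14. These levels stem from separate tables and were not tested.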
